A study of Arabidopsis thaliana with 6 samples.

Results

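The comparison described here sets cpsf30-1 seedlings against nerd-1 seedlings and reads out RNA that lies past the annotated 3′ ends of genes. Its members are the libraries labelled cpsf30-1 (replicates 1 and 2) and nerd-1 (replicates 1 and 2), 4 of the 6 libraries in the series, and they were chosen by genotype label. The other 2 are wild-type (WT) libraries, which enter the model of the spread and are given beside the mutants. All 6 are polyA-selected, stranded paired-end libraries made from whole seedlings of Arabidopsis thaliana at an age of 9 days. Both mutants and WT share the Col-0 ecotype, and no treatment is given. For every annotated transcript the submitters counted reads in the 500 bases after its 3′ end, here called its window. With 1 transcript kept per gene, each gene has 1 window and the table holds 31109 windows. Each genotype is 1 line, and nothing in the labels says whether the paired libraries came from separate cultures, so every p-value measures the spread between these libraries, which may be technical.

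CPSF30 is the zinc finger subunit of the cleavage and polyadenylation specificity factor, the complex that recognises the polyadenylation signal in a nascent transcript and directs its cleavage. In plants the gene also makes a longer protein with a YTH domain, which binds RNA carrying the m6A mark. NERD is a protein with GW repeats and a PHD finger that binds an ARGONAUTE and takes part in small RNA directed DNA methylation. Reads past an annotated end can come from a transcript that was cleaved further downstream, from an unannotated longer isoform or from a neighbouring gene, and they do not measure the expression of the gene whose window they fall in. In whole seedlings, fewer cells of a type and less RNA per cell cannot be told apart.

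The windows were sorted by what else the reference annotation (TAIR10.1, whose nuclear chromosome sequence is that of TAIR10) places in them. A window with no other gene on either strand is called isolated, and 13927 windows are. Another 7040 overlap a neighbouring gene on the same strand, and 9651 overlap one on the other strand only. The remaining 491 genes had no position in the reference. Because 560 of the 39087 deposited transcript names were not in the reference, and the submitters' annotation is not given in the sources used here, window positions follow the reference and are approximate.

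The last 30 bases of the genes with the smallest p among isolated windows higher in cpsf30-1 show the ends past which the extra reads lay. They are written on the gene's strand from 5′ to 3′ up to the annotated end, from RefSeq TAIR10.1. APX1, the only one of the 8 with the canonical polyadenylation hexamer AATAAA in its last 50 bases, is shown at the hexamer instead, in capitals, which began 33 bases before the end.
GUN5, chr5:4387307-4387336, minus strand: aacaaactatggttgagtcatgcttttgcg
AT3G60750, chr3:22457429-22457458, plus strand: aaacgatttagaaagacaatgtaaaactcc
D-CDES, chr1:17895784-17895813, minus strand: gagcaatgcacatggctgaaattgacatgt
AGT, chr2:5538740-5538769, minus strand: tatttgcgtcttaacgcttttagtttaaac
GGT1, chr1:8268385-8268414, minus strand: aatccatgtcctagtttgtttttgattatg
APX1, chr1:2439621-2439650, plus strand: cttagacacattAATAAAattaatttctct
AT2G45180, chr2:18627128-18627157, plus strand: taggcccatatggacctataagtccagaac
AT1G51980, chr1:19323055-19323084, minus strand: atggtggtaggagagggatgagcaagcata

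A pair of isolated windows lower in cpsf30-1 is shown beside them for contrast, since both also lack the hexamer in these last 50 bases.
AT5G48480, chr5:19646811-19646840, plus strand: atcataagctttcggattcttatcaattat
AT5G37890, chr5:15089678-15089707, minus strand: aaaaacttgtgaatacaactaagctttctt

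The libraries held 10207122 and 11291784 window counts in cpsf30-1, 9774817 and 9764394 in nerd-1, and 8703050 and 13740648 in WT. The SD of the log2 difference between the libraries of a genotype, over windows, was 0.67 in cpsf30-1, 0.57 in nerd-1 and 0.86 in WT, so the WT pair was the least alike. Past the shorter deposited CPSF30 transcript (AT1G30460.2), 1 and 0 reads were counted in cpsf30-1, against 66 and 58 in nerd-1 and 43 and 49 in WT. Most of that window lies inside the longer CPSF30 transcript, and its nerd-1 to cpsf30-1 ratio was 137 (95% counting interval 24.1 to 5437), with a fitted log2 fold change of -6.77 (SE 0.70, edgeR adjusted p = 0.00350 over all deposited transcripts). The window past the longer transcript held 4 and 16 reads in cpsf30-1, 3 and 4 in nerd-1, and 4 and 2 in WT. Past NERD there were 3 and 0 reads in cpsf30-1 and 0 and 0 in both nerd-1 and WT, a level that does not check the nerd-1 label. Windows past root markers and light reaction genes were summed with the makeup of the seedlings in mind. Reads past a gene do not measure its expression, so these sums cannot show that makeup. Windows past 3 of 10 root markers were tested, and all 3 overlap a neighbouring gene. Their summed level was 26.0 and 26.7 CPM (counts scaled to a common library size) in cpsf30-1, 48.1 and 42.3 in nerd-1, and 36.7 and 33.8 in WT. The 36 light reaction windows summed to 6849 and 8932 CPM in cpsf30-1, 6451 and 7802 in nerd-1, and 7924 and 8669 in WT. Most of that sum came from LHCB1.1 (mean 4927 CPM in cpsf30-1, 4534 in nerd-1 and 4766 in WT) and LHCB2.1 (1853, 1566 and 2484 CPM). Whether a different makeup of the seedlings had a part in the results below was not tested.

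More windows were higher in cpsf30-1 than lower. Of 14151 windows with enough reads to test, 1044 held more reads in cpsf30-1 than in nerd-1 (7.38%) and 459 held fewer (3.24%) at an adjusted p under 0.05 in the edgeR quasi-likelihood test, 10.6% in all. Among the windows that were higher the median fold was 5.13, and among those that were lower it was 2.38. Differences of at least 2-fold were seen in 917 windows that were higher and 334 that were lower. In the same model cpsf30-1 differed from WT in 1453 windows (10.3%), and nerd-1 differed from WT in 6 (0.0424%). These comparisons share libraries with the main one, and their counts are given only side by side. Both cpsf30-1 libraries stood above both nerd-1 libraries in 32.9% of windows tested and below them in 29.5%, most of them without a call.

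**Figure D1:**
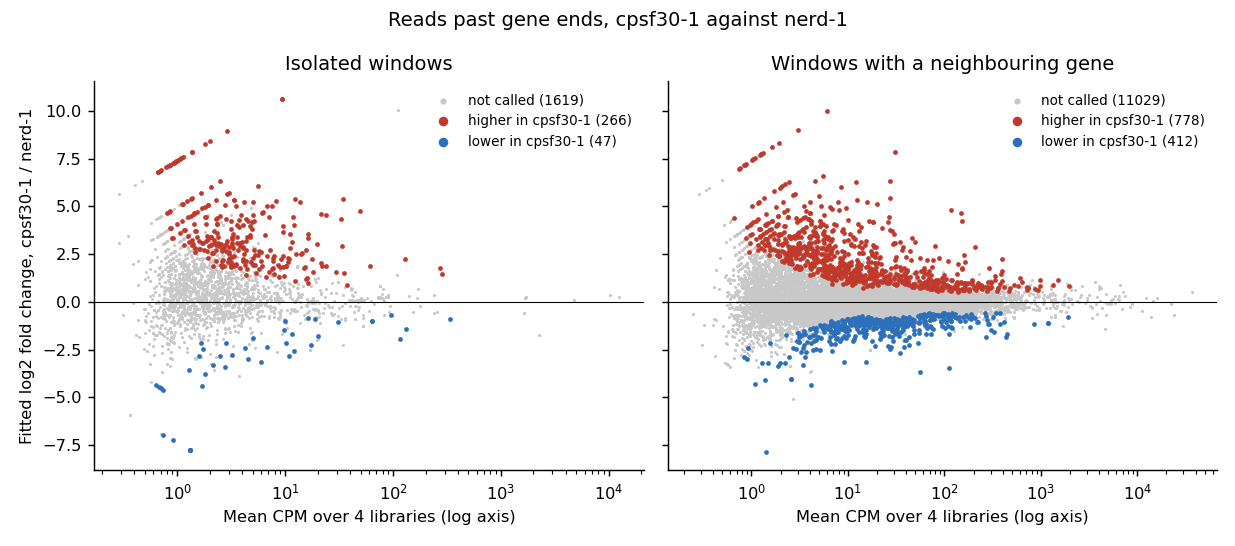
Fitted log2 fold change of each window, cpsf30-1 over nerd-1, against its mean CPM over the 4 libraries on a log axis, for isolated windows on the left and windows with a neighbouring gene or without a position on the right. Red points are called higher in cpsf30-1 and blue points lower at an adjusted p under 0.05; among isolated windows 266 are red and 47 blue.

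Among windows with enough reads to test, isolated ones were called higher more often than the rest, and this order depended on the filter on low counts. Of 1932 isolated windows tested, 266 were higher in cpsf30-1 (13.8%) and 47 lower (2.43%), where all windows tested gave 7.38% and 3.24%. Windows with a neighbour on the same strand gave 416 higher and 164 lower of 4920, and windows with a neighbour on the other strand only gave 353 higher and 237 lower of 7176. The median log2 fold change was 0.50 over isolated windows, 0.02 over same-strand windows, -0.01 over other-strand windows and 0.04 over all. A window with few reads can pass the filter through the genotype where it is high, so these values describe the windows that passed and not all isolated windows. With no filter 6.19% of 9667 isolated windows were higher, against 7.38% of all 25812 windows, and the isolated median was 0.26. With a minimum of 50 counts in 2 libraries 22.8% of 593 isolated windows were higher, against 8.25% of all 9764, and the isolated median was 0.29. Isolated windows that were higher held few reads in nerd-1. Their median was 5.68 CPM in cpsf30-1, against 0.603 CPM in nerd-1 and 0.668 CPM in WT, where 3 reads amount to about 0.302 CPM in nerd-1 libraries. As a share of all window counts, isolated windows took up 5.68% and 6.26% in cpsf30-1, against 5.45% and 5.47% in nerd-1 and 5.92% and 5.53% in WT. Both cpsf30-1 shares lie above both nerd-1 shares, but the WT shares overlap those of cpsf30-1, and the exact two-sided permutation test of cpsf30-1 against nerd-1 gave p = 0.333, the smallest that 2 against 2 libraries allow. For windows isolated over 1000 bases the shares were 3.35% and 3.83% in cpsf30-1, against 3.38% and 3.41% in nerd-1, so the libraries overlapped (exact permutation p = 1).

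**Figure D2:**
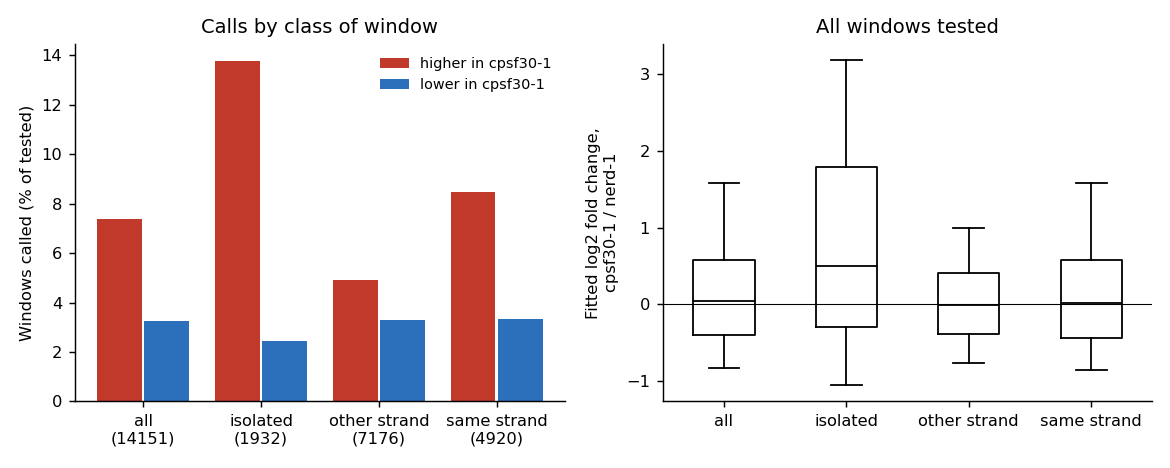
Left, percent of windows tested that were called higher (red) and lower (blue) in cpsf30-1, by what else lies in the window, with the number tested under each class. Right, the fitted log2 fold change of all windows tested in each class, cpsf30-1 over nerd-1, where the line is the median, the box spans the quartiles and the whiskers run from the 10th to the 90th percentile; the isolated median stands at 0.50 and the others near 0.

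The share of higher windows was also read by distance to the next gene and by chromosome. Isolated windows with the next gene 500 to 1000 bases away were higher in 12.2% of 786 cases, those at 1000 to 2000 bases in 16.3% of 631, those at 2000 to 4000 bases in 12.4% of 355 and those farther away in 14.4% of 160. By chromosome, over all windows tested, it ran from 6.62% on chromosome 1 to 7.82% on chromosome 5.

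GUN5, the subunit H of magnesium chelatase in chlorophyll synthesis, had the smallest p of the isolated windows. Its window held 614 and 818 reads in cpsf30-1, against 18 and 14 in nerd-1 and 6 and 11 in WT, a log2 fold change over nerd-1 of 5.38 (SE 0.30, adjusted p = 0.000870). The cpsf30-1 libraries stood far above the other 4, and the next annotated gene lay 920 bases away. AT3G60750, a transketolase of the Calvin cycle, had 568 and 759 reads in cpsf30-1, against 35 and 26 in nerd-1 and 13 and 21 in WT (log2 fold change 4.35, SE 0.28). When another transcript of this gene, the one with the most reads, was used, the log2 fold change was 0.66 and the call was lost (adjusted p = 0.117). D-CDES, which breaks down D-cysteine, had 294 and 339 reads in cpsf30-1, against 30 and 28 in nerd-1 and 10 and 20 in WT (log2 fold change 3.35, SE 0.24).

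AGT and GGT1, aminotransferases that make glycine from glyoxylate in photorespiration, were among these windows. The window of GGT2, a close relative of GGT1, did not pass (log2 fold change -1.91, edgeR adjusted p = 0.172). The GGT2 window overlaps another gene on the same strand and held few reads (mean 0.468 CPM in cpsf30-1 and 1.80 CPM in nerd-1). It is therefore no like comparison for the isolated window of GGT1. AGT, annotated as an alanine:glyoxylate aminotransferase, had 490 and 379 reads past its end in cpsf30-1, against 13 and 21 in nerd-1 and 40 and 55 in WT (log2 fold change 4.58, SE 0.33). GGT1, which uses glutamate, had 261 and 299 reads in cpsf30-1, against 4 and 10 in nerd-1 and 7 and 14 in WT (log2 fold change 5.20, SE 0.40). In each the 2 cpsf30-1 libraries were above all 4 others, and WT lay above nerd-1 past AGT. APX1, the cytosolic ascorbate peroxidase that removes hydrogen peroxide, had 138 and 175 reads in cpsf30-1, against 4 and 5 in nerd-1 and 5 and 11 in WT (log2 fold change 4.99, SE 0.40). The remaining pair of the 8 were AT2G45180, annotated as a lipid-transfer family protein, and AT1G51980, annotated as a peptidase of the M16 family. AT2G45180 had 291 and 278 reads in cpsf30-1, against 48 and 35 in nerd-1 and 44 and 87 in WT (log2 fold change 2.69, SE 0.25). AT1G51980 had 118 and 167 reads in cpsf30-1, against 7 and 5 in nerd-1 and 2 and 6 in WT (log2 fold change 4.45, SE 0.43), with no other gene for 8138 bases.

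**Figure D3:**
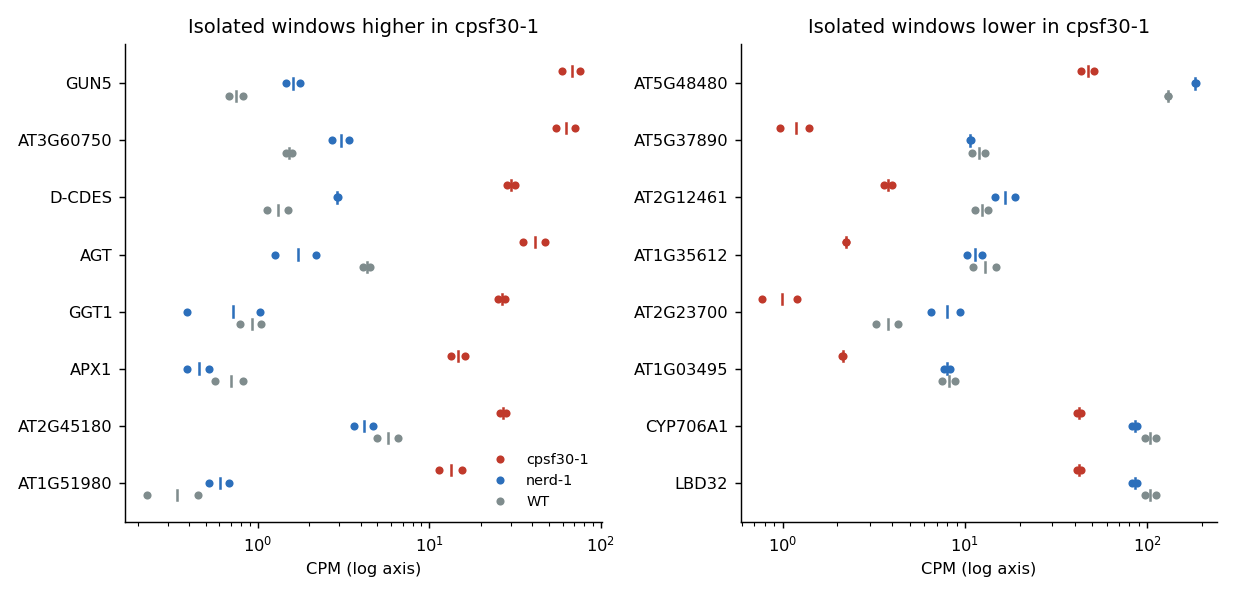
CPM in each library (points, log axis) and genotype mean (short bars) for the 8 isolated windows with the smallest p that were higher in cpsf30-1 (left) and the 8 that were lower (right), in cpsf30-1 (red), nerd-1 (blue) and WT (grey). In every window on the left both red points lie above all blue and grey points, and GUN5 reads 59.4 and 75.9 CPM in cpsf30-1, against 1.76 and 1.46 CPM in nerd-1.

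Some windows were filled in cpsf30-1 and empty in nerd-1. In 41 windows called higher neither nerd-1 library held a read, 25 of them isolated, 1 in a run of the kind described below, and 13 of them empty in WT as well. A window empty in nerd-1 can pass the filter only through the other genotypes, and those 13 passed through cpsf30-1 alone. The 41 therefore describe windows that passed this way, and how many empty windows were tested without a call is not given here. Taking 3 counts per nerd-1 library as the limit, these were at least 4.39-fold to at least 62.4-fold higher, with a median bound of 6.76. ATX1, a copper chaperone, had 73 and 49 reads in cpsf30-1 and none in any nerd-1 or WT library, at least 19.2-fold higher than nerd-1. JAL31, a jacalin-related lectin, had 296 and 98 reads in cpsf30-1, against 0 and 0 in nerd-1 and 0 and 3 in WT, at least 62.4-fold higher. The window of AT3G16432 farther along the same strand held nearly the same counts (296 and 97 in cpsf30-1, 0 and 0 in nerd-1), so these windows cannot be taken as separate observations. PRXCB, a peroxidase of the cell wall, and the glutamine synthetases GSR 1 and GSR2, which fix ammonium into glutamine, are named after their values were seen. PRXCB had 120 and 138 reads in cpsf30-1, against 0 and 0 in nerd-1 and 5 and 9 in WT, and its window overlaps AT3G49130 on the same strand. GSR 1 had 33 and 48 reads in cpsf30-1 and none in nerd-1 or WT. Its window overlaps AT5G37590, which lay 498 bases past the end of GSR 1. GSR2, in an isolated window, had 21 and 20 in cpsf30-1, 0 and 0 in nerd-1 and 1 and 1 in WT.

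Isolated windows with fewer reads in cpsf30-1 were 47, 12 of them in runs described below, and most differences among the leading ones were smaller. AT5G48480, of the glyoxalase I family, had 449 and 554 reads in cpsf30-1, against 1894 and 1762 in nerd-1 and 1150 and 1722 in WT (log2 fold change -1.96, SE 0.15, adjusted p = 0.00205). AT5G37890, with a RING domain and a TRAF-like domain, had 10 and 15 reads in cpsf30-1, against 110 and 102 in nerd-1 and 114 and 145 in WT (log2 fold change -3.16, SE 0.30). For AT5G37890 the WT libraries lay slightly above those of nerd-1 on the CPM scale, and cpsf30-1 was far below both. The pseudogene AT1G35612 had 23 and 24 reads in cpsf30-1, against 105 and 120 in nerd-1 and 131 and 148 in WT (log2 fold change -2.35, SE 0.28).

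Among the other isolated windows with the smallest p, AT2G12461, an uncharacterised protein, fell to 37 and 43 reads in cpsf30-1, against 149 and 180 in nerd-1 and 101 and 179 in WT. AT2G23700 (DUF547) fell to 8 and 13 in cpsf30-1, against 96 and 63 in nerd-1 and 38 and 43 in WT. AT1G03495, an acyltransferase of the HXXXD type, fell to 22 and 23 in cpsf30-1, against 79 and 80 in nerd-1 and 78 and 100 in WT. CYP706A1, a cytochrome P450, and LBD32, a LOB domain transcription factor, each had 426 and 467 reads in cpsf30-1 and 905 and 792 in nerd-1. The windows of CYP706A1 and LBD32 lie at different places (starts 11931751 and 11933887 on chromosome 4) but held identical counts in 5 of the 6 libraries and 860 and 859 in the remaining one, so they too count once. Among isolated windows outside the runs described below and with a mean of at least 2 CPM in nerd-1, the largest fitted decreases were past PDF1.2b, AT5G55040 and CYP76C2. PDF1.2b, a plant defensin induced by jasmonate, had 1 and 2 reads in cpsf30-1, against 37 and 27 in nerd-1 and 48 and 235 in WT, and it belongs to a family of near-identical defensins whose reads the counting could split. AT5G55040, a bromodomain protein, had 0 and 5 in cpsf30-1, against 37 and 30 in nerd-1 and 16 and 25 in WT. CYP76C2, another cytochrome P450, had 2 and 2 in cpsf30-1, against 26 and 21 in nerd-1 and 6 and 7 in WT, so here nerd-1 stood above WT as well.

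Windows that overlap another gene can hold that gene's reads. FBP, the cytosolic fructose-1,6-bisphosphatase of sucrose synthesis, had 2258 and 2525 reads past its end in cpsf30-1, against 66 and 94 in nerd-1 and 203 and 227 in WT (log2 fold change 4.80, SE 0.27), in a window that overlaps AT1G43675. AT3G21670, a membrane transporter of the major facilitator superfamily, had 571 and 549 in cpsf30-1, against 16 and 8 in nerd-1 and 4 and 8 in WT (log2 fold change 5.45, SE 0.33), overlapping AT3G21660. AT5G14910, a predicted heavy metal binding protein, had 520 and 549 in cpsf30-1, against 24 and 22 in nerd-1 and 13 and 14 in WT (log2 fold change 4.44, SE 0.25), overlapping AT5G14920. In all 3 both cpsf30-1 libraries were above the other 4, and the overlapping genes are on the same strand, so the strand cannot separate their reads.

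The 4 lower windows with the smallest p under the naming rule, taken only among windows that are not isolated, are given next. SDH1-2, a subunit of succinate dehydrogenase, had 195 and 202 reads past its end in cpsf30-1, against 2081 and 2004 in nerd-1 and 1325 and 2496 in WT (log2 fold change -3.45, SE 0.17), in a window on GUT15, a noncoding RNA gene. EGY3, a chloroplast protein of the site-2 protease family, had 1140 and 1336 in cpsf30-1, against 4268 and 4177 in nerd-1 and 5490 and 8420 in WT (log2 fold change -1.86, SE 0.15), over AT1G05347 and AT1G17860. MAP70-3, a microtubule-associated protein, had 159 and 151 in cpsf30-1, against 685 and 734 in nerd-1 and 471 and 762 in WT (log2 fold change -2.28, SE 0.20), on RR14, a cytokinin response regulator. AT4G13572, uncharacterised, had 4 and 4 in cpsf30-1, against 80 and 77 in nerd-1 and 191 and 220 in WT (log2 fold change -4.34, SE 0.34), in a window that overlaps AT4G06115 on the other strand. For this last window WT was above nerd-1, and cpsf30-1 was below both.

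The WT libraries were set beside the calls as a description, since the windows were picked for a difference between the mutants. Of the 1044 windows higher in cpsf30-1, both WT libraries were below both cpsf30-1 libraries in 990, and they were so in 27.5% of all windows tested. Both WT libraries were above both nerd-1 libraries in 385 of the 1044, and in 21.4% of all windows tested. Of the 459 windows lower in cpsf30-1, both WT libraries were above both cpsf30-1 libraries in 423, and in 24.6% of all windows tested, while both were below both nerd-1 libraries in 229, and in 3111 of all 14151. WT lay between the mutants on both counts in 331 of the higher and 193 of the lower windows. Among isolated windows both WT libraries were below cpsf30-1 in 261 of 266 higher windows, and above it in 37 of 47 lower ones. Of the 10 other lower isolated windows, 9 had WT at or beyond the cpsf30-1 level, and these are mostly the windows of 1 stretch of chromosome 3 described next.

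A stretch of chromosome 3 had reads in nerd-1 only. AT3G29830, a gene for an F-box protein picked here after its values were seen, had 0 and 0 reads in cpsf30-1, 17 and 34 in nerd-1 and 0 and 0 in WT, and neighbouring windows held matching counts. A window empty in cpsf30-1 can likewise pass the filter only through the other genotypes. Of 11 windows called lower with no read in either cpsf30-1 library, 9 lie in runs of this kind, in which at least 8 neighbouring windows share a minimum count of at least 10. Such runs held 702 of the windows tested, 35 of the higher calls and 36 of the lower calls, and no window named by p or size in the paragraphs above lies in one.

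The 6 windows called in nerd-1 against WT were looked at in the same 6 libraries. None of the 6 is isolated, so their reads can be those of a neighbouring gene. The windows of PBA1, AT1G55680, AT1G73460 and AT2G11890 overlap AT4G31310, AT1G55675, AT1G73470 and AT2G11891 on the same strand. Those of CLC-B and KCS15 overlap AT3G27180 and AT3G52155 on the other strand. PBA1, a catalytic beta subunit of the proteasome, had 1475 and 1524 reads in cpsf30-1, against 191 and 186 in nerd-1 and 714 and 1263 in WT. CLC-B, a chloride channel family protein, had 504 and 628 in cpsf30-1, against 39 and 41 in nerd-1 and 285 and 397 in WT. KCS15, a ketoacyl-CoA synthase of very long chain fatty acid synthesis, had 661 and 488 in cpsf30-1, against 49 and 45 in nerd-1 and 267 and 504 in WT. The windows of AT1G73460, a protein kinase, and AT1G55680, a WD40 repeat protein, were lowest in nerd-1 as well. AT1G73460 had 221 and 212 in cpsf30-1, against 56 and 56 in nerd-1 and 213 and 371 in WT, and AT1G55680 had 523 and 572 in cpsf30-1, against 78 and 50 in nerd-1 and 344 and 620 in WT. All 5 fell in nerd-1 against WT (adjusted p 0.0256 to 0.0375), PBA1 by 2.21 and CLC-B, the most, by 2.94 on the log2 scale. All 5 were also higher in cpsf30-1 than in nerd-1. Both comparisons use the same nerd-1 libraries, for whose low values these windows were picked, so the second is no separate support for the first. Of these 5, only PBA1 passed between cpsf30-1 and WT (log2 fold change 0.69, adjusted p = 0.0325). AT2G11890, annotated as an adenylate cyclase, went the other way, with 96 and 113 in cpsf30-1, against 164 and 145 in nerd-1 and 23 and 29 in WT, and it did not pass between cpsf30-1 and nerd-1 (log2 fold change -0.65, adjusted p = 0.104). Past AT2G11890 cpsf30-1 was higher than WT (log2 fold change 2.05, adjusted p = 0.00556).

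**Figure D4:**
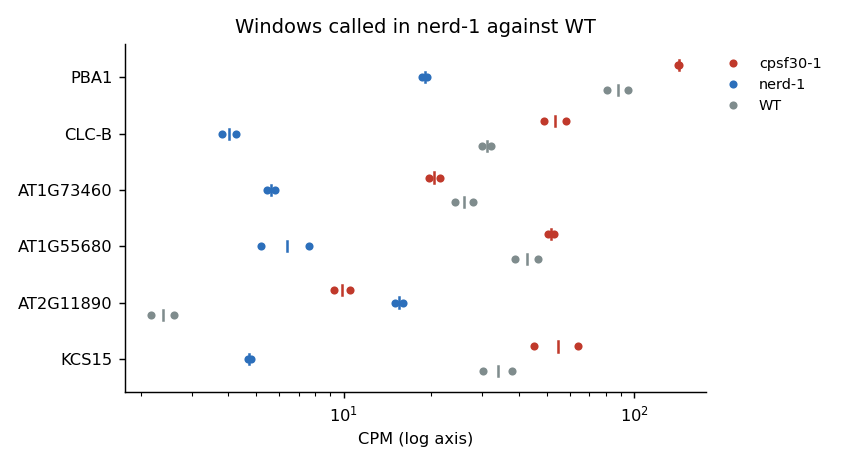
CPM in each library (points, log axis) and genotype mean (short bars) for the 6 windows called in nerd-1 against WT, in cpsf30-1 (red), nerd-1 (blue) and WT (grey). All 6 windows overlap another gene. In 5 windows nerd-1 is the lowest genotype, PBA1 reading 143 and 141 CPM in cpsf30-1, 18.6 and 19.3 CPM in nerd-1 and 80.8 and 95.0 CPM in WT, and past AT2G11890 it is the highest.

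Gene lists were read against the background of 7.38% higher and 3.24% lower over all windows tested. Isolated windows alone gave 13.8% higher and 2.43% lower, and they were 1932 of the 14151 tested. A list with a larger part of isolated windows therefore has a higher background. Of 36 light reaction windows tested, 12 of them isolated, 10 were higher, 1 was lower and 25 did not pass. Their median log2 fold change was 0.64, against 0.04 over all windows. Higher were windows past the photosystem I subunits PSAF, PSAK, PSAD-1 and PSAD-2, the antenna proteins LHCA1, LHCA2, LHCA3 and LHCB5, the Rieske protein PETC and the plastocyanin DRT112. PSAK, in a window on AT1G30390, had 249 and 256 reads in cpsf30-1, against 25 and 12 in nerd-1 and 15 and 18 in WT (log2 fold change 3.68, SE 0.34). PSAF had 625 and 525 in cpsf30-1, against 74 and 55 in nerd-1 and 96 and 128 in WT, and PSAD-1 had 37.9 and 26.6 CPM in cpsf30-1, against 6.54 and 5.93 CPM in nerd-1 and 9.84 and 8.88 CPM in WT. The 4 isolated ones were LHCB5, LHCA1, LHCA2 and DRT112, and LHCA2 had 139 and 138 in cpsf30-1, against 7 and 1 in nerd-1 and 8 and 1 in WT. LHCB3, an antenna protein of photosystem II, was the lower one, with 616 and 799 in cpsf30-1, 1766 and 1583 in nerd-1 and 719 and 821 in WT, in a run of neighbouring windows in nerd-1 replicate 1.

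Of 19 carbon fixation and photorespiration windows, 9 of them isolated, 5 were higher and 0 lower (median 0.44), and all 5 were isolated. They were AT3G60750, AGT and GGT1 above, the Rubisco small subunit gene RBCS3B and the hydroxypyruvate reductase HPR. HPR had 66 and 74 reads in cpsf30-1, against 13 and 17 in nerd-1 and 12 and 17 in WT. RBCS3B had 39 and 37 in cpsf30-1, 0 and 0 in nerd-1 and 1 and 3 in WT, at least 11.9-fold higher, and its near-identical neighbours make the source of these reads uncertain. Of 15 oxidative stress and detoxification windows, 4 of them isolated, 6 were higher and 0 lower (median 0.47). The 6 lay past APX1, the catalase CAT2, the superoxide dismutase FSD1, the glutathione reductase GR and the glutathione transferases GSTU19 and GSTF2. GSTU19, in an isolated window, had 125 and 124 in cpsf30-1, against 3 and 6 in nerd-1 and 9 and 8 in WT (log2 fold change 4.66, SE 0.47). CAT2, whose window overlaps AT4G35080 on the other strand, had 968 and 893 in cpsf30-1, against 111 and 88 in nerd-1 and 87 and 272 in WT, and its call was lost with the transcript of the highest count (log2 fold change 0.37, adjusted p = 0.446). FSD1 lies in a run in cpsf30-1 replicate 1. Of 16 chlorophyll synthesis windows, 3 of them isolated, 2 were higher (GUN5 and HEMA1) and 2 lower (HEMC and HEMB1). Both higher windows were isolated, while both lower ones overlap another gene and can hold its reads. The HEMC window overlaps AT5G08270 on the other strand, and the HEMB1 window overlaps COX19-2 on the same strand. HEMA1, which starts tetrapyrrole synthesis, had 114 and 72 in cpsf30-1, against 6 and 5 in nerd-1 and 1 and 3 in WT, and HEMC, a later step, had 57 and 57 in cpsf30-1, against 162 and 138 in nerd-1 and 124 and 168 in WT.

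**Figure D5:**
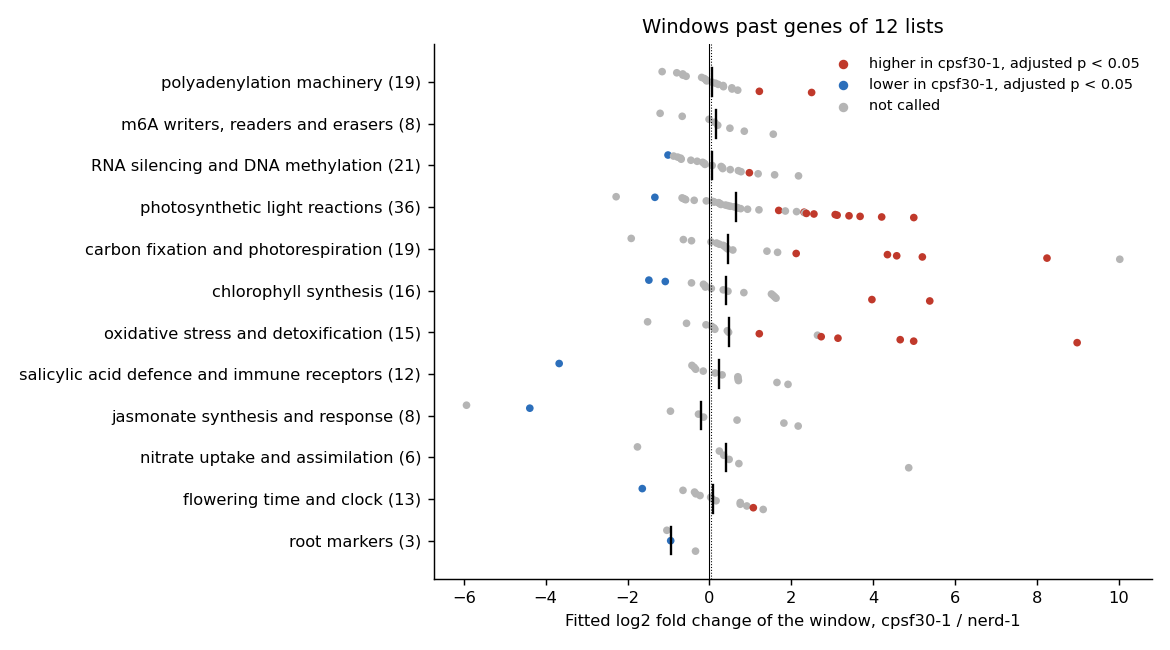
Fitted log2 fold change of the window past each gene, cpsf30-1 over nerd-1, for the windows tested in 12 gene lists, with the number tested in brackets. Red points are called higher in cpsf30-1, blue points lower and grey points are not called; the black bar is the median of the list and the dotted line the median of all windows tested (0.04).

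Windows past genes of the 3′ end formation machinery were called about as often as all windows tested (10.5% against 10.6%). This does not show the expression of the machinery. Of 30 listed polyadenylation genes 19 had their window tested, and 2 of these windows were isolated. Of the 19, 2 were higher and 0 lower (median 0.06), and both called windows overlap a gene on the same strand. AT5G60940, the cleavage stimulation factor CstF50, had 64 and 76 reads in cpsf30-1, against 9 and 14 in nerd-1 and 9 and 10 in WT (log2 fold change 2.50, SE 0.44), in a window on AT5G60945. CPSF73-I, the endonuclease of the complex, had 226 and 228 in cpsf30-1, against 109 and 75 in nerd-1 and 127 and 147 in WT (log2 fold change 1.22, SE 0.24), in a window on AT1G61000. None of 8 m6A windows was called, with values between -1.21 and 1.56 on the log2 scale. Of 21 RNA silencing and DNA methylation windows, DCL1, which cuts microRNA precursors, was higher and SUVH4, a histone methyltransferase, lower (log2 fold changes 0.98 and -1.01). In the flowering and clock list (13 windows) LHY was higher (log2 fold change 1.07, adjusted p = 0.0475) and PCL1 lower (-1.64), both of them transcription factors of the clock. The windows of DCL1 and LHY both lie on PPa1, a pyrophosphatase gene, which is on the other strand for DCL1 and the same strand for LHY. The LHY window also overlaps AT1G03997 on the other strand and a longer transcript of LHY itself. The windows of SUVH4 and PCL1 overlap AT5G13970 and AT3G46650 on the other strand. The LHY call was lost with the transcript of the highest count (log2 fold change 0.43, edgeR adjusted p = 0.340) and with scaling by library totals (edgeR adjusted p = 0.0526).

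Defence lists held 1 call each. Of 12 salicylic acid and immune receptor windows, RPP4, a TIR-NBS-LRR resistance gene, was lower, with 73 and 97 reads in cpsf30-1, against 1219 and 828 in nerd-1 and 680 and 521 in WT (log2 fold change -3.67, SE 0.38), in a window on AT4G16870. Of 8 jasmonate windows PDF1.2b was lower, and 0 of 6 nitrate windows passed, which ranged from -1.76 to 4.87 on the log2 scale. The glutamine synthetases GSR 1 and GSR2, whose windows were called higher (edgeR adjusted p = 0.0175 and 0.0173), were not on the nitrate list. SCR, a root transcription factor, was lower (log2 fold change -0.95), in a window on SUA.

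Sequence at the ends was read for AATAAA, on the gene's strand only. It stood in the last 50 bases of 8.60% of genes with higher windows, 8.04% of those with lower windows and 9.52% of those tested, against 8.78% of all genes with a position. For isolated windows the shares were 8.27% of the higher, 8.51% of the lower and 8.80% of those tested. In the first 100 bases of the window it stood in 10.5% of higher, 12.5% of lower and 12.1% of windows tested. These shares are a description of the letters in the window and say nothing on other signal sequences or on which site was used. CAT2 and HEMC, higher and lower in cpsf30-1, both carry it, here with the hexamer in capitals.
CAT2, chr4:16700332-16700361, minus strand: aAATAAActtggttttgacattttggggtt
HEMC, chr5:2663506-2663535, minus strand: ttagagagacaaAATAAAatccagagactt

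The number of calls moved when a library was left out. Leaving out a nerd-1 library left 57 higher and 17 lower calls without replicate 1 and 37 and 6 without replicate 2. Leaving out a cpsf30-1 library left 233 and 65 without replicate 1 and 315 and 133 without replicate 2. Without a WT library the calls numbered 1527 and 777 (replicate 1) and 1370 and 802 (replicate 2). In these fits a lone library was assumed to vary like the other genotypes. Of the 45 windows that the naming rule chose and that were tested, GUN5, AT3G60750, D-CDES, AGT, GGT1, APX1, AT5G48480, FBP, PBA1, AT5G14910, AT3G21670, SDH1-2, AT4G13572, EGY3, PSAK and RPP4 kept their call in all 6 of these fits, and the others of the 45 lost it in at least 1.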

How the data were processed

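The submitters prepared polyA-selected stranded libraries with paired 125-base reads from whole seedlings, 2 per genotype, per the labels' protocols. The submitters' processing notes name TAIR10 and, with no role, Cuffdiff, Cufflinks 2.2.1, TopHat2 2.0.7 and Bowtie2 2.3.4. The sources used here do not give the counting tool, strand setting or annotation. Each deposited value is a raw read count for the 500 bases after a transcript's 3′ end. A read in overlapping windows may count in each. Depth was 8703050 to 13740648 counts per library, and counting intervals and limits cover counting error only.

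For each gene the transcript ending farthest downstream was kept (ties to the lowest isoform). Windows passing edgeR's filterByExpr were tested (14151 of 31109) with edgeR 4.0.16 (TMM, quasi-likelihood F-test, 1 mean per genotype over 6 libraries, common biological coefficient of variation 0.265, two-sided). The contrast was cpsf30-1 minus nerd-1, with Benjamini-Hochberg adjustment over all windows tested. A log2 fold change is the fitted one, SE is its size divided by the square root of F, and CPM uses the TMM-scaled library size. Limits for empty libraries use 3 counts. DESeq2 1.42.0, other scalings, filters, transcript choices, a replicate block and left-out libraries were tried as alternatives.

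Named windows were called, at least 2-fold, at or above a mean of 2 CPM in the higher genotype, with libraries of the 2 genotypes not overlapping, and outside runs: among isolated windows the 8 with the smallest p and the 3 largest changes in each direction, among the others the 4 with the smallest p, and up to 3 called members from each of 12 lists (258 genes), where only the call was required. CPSF30 and NERD were always named, and the windows called in nerd-1 against WT and further list members are given beside them. The members, lists and rules were chosen with earlier results of these data known. Sequences and positions come from RefSeq TAIR10.1.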

Additional observations from a re-analysis of the deposited data

How the results depend on the processing

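Under the alternatives tried no named window changed direction, and higher calls outnumbered lower ones each time, while the median over all windows tested ran from -0.02 to 0.05 on the log2 scale. Leaving out 1 library in turn gave 37 to 1527 windows higher and 6 to 802 lower, 11 to 391 isolated windows higher and 1 to 79 lower, and an isolated median log2 fold change of 0.42 to 0.66. Without the filter on low counts there were 1906 higher, 1115 lower, 598 isolated higher and 180 isolated lower calls, with a median of 0.26. A filter of 50 counts in 2 libraries left 135 isolated higher and 23 isolated lower calls and a median of 0.29. A fit of only the 4 libraries gave 816 lower and 75 isolated lower calls. An adjusted p under 0.01 left 185 higher and 40 lower, 50 and 4 of them isolated. Windows isolated for 1000 bases gave 170 higher calls. The transcript with the highest count gave an isolated median of 0.36. The causes were not tested, beyond the fewer libraries, windows or stricter limits that these settings have by construction. Same-numbered libraries did not deviate together between cpsf30-1 and nerd-1 (correlation of deviations -0.001) or between nerd-1 and WT (-0.005). Between cpsf30-1 and WT they tended to deviate in opposite directions (-0.311). With a replicate block the counts were 327 higher, 82 lower, 88 isolated higher and 9 isolated lower, and 13 of the 45 named windows tested lost their call. DESeq2, its size factors used in edgeR, scaling by library totals, a 2-fold minimum, leaving out windows in runs and leaving out windows on a longer transcript of the same gene kept each count within 1.5 times. The difference in the share of counts in isolated windows, 0.505 percentage points, was 0.188 for windows isolated over 1000 bases, 0.744 with the transcript of the highest count, 0.493 without runs and 0.501 without longer transcripts. Depth limits windows near 3 counts, about 0.3 CPM.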
